A study of Mus musculus with 6 samples.

Results

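The heterogeneous nuclear ribonucleoproteins (hnRNPs) and the serine/arginine-rich (SR) splicing factors were followed in HL-1, a cell line that descends from atrial heart muscle of the mouse. Members were all genes of the deposited count table named Hnrnp followed by letters or digits, or Srsf followed by digits, and 31 of its 49492 genes met this rule, 20 of them hnRNP genes and 11 Srsf genes. In 3 libraries the cells had been transfected to overexpress ZNF593-AS, a long noncoding RNA, and in 3 libraries they had received the vector. All cells were also given palmitic acid, which is a saturated fatty acid. Total RNA was sequenced, and no library without the fatty acid was analysed here. Nothing in the labels says that replicates came from separate cultures. Each p-value therefore reflects the spread among these libraries alone, pooled in part over genes and possibly a technical one.

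hnRNPs are RNA-binding proteins that coat nascent transcripts in the nucleus, and many of them hold back the use of splice sites nearby. SR proteins join RNA recognition motifs to a tail rich in arginine and serine, bind exons and recruit the spliceosome, and they often act against hnRNPs at the same sites. Many genes of both families limit their own level through alternative exons that send the transcript to nonsense-mediated decay. In the mouse heart, loss of Hnrnpu, Srsf1 or Srsf2 is known to cause cardiomyopathy. Hnrnpc was set among its relatives because earlier work on ZNF593-AS, recalled here and not checked in a source, named the hnRNP C protein as its partner.

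Gene counts summed to 61042914 to 84547615 in the ZNF593-AS libraries and to 51470457 to 73529088 in the vector libraries. The treatment fields of ZNF593-AS replicates 2 and 3 carry the names ZNF594-AS and ZNF595-AS while their titles read ZNF593-AS, and the libraries were grouped by title. The name ZNF593-AS is written as for a human gene and is no row of the mouse table. The level of the transfected RNA was therefore not measured by a row of its own. At the mouse locus Zfp593 was at 20.8, 21.4 and 19.5 CPM with ZNF593-AS and at 16.2, 13.1 and 15.7 CPM with vector (log2 fold change 0.46 ± 0.09 SE, edgeR adjusted p = 0.00186). E130218I03Rik, whose counts were nearly the same in each library, had 0.46 ± 0.09 (edgeR adjusted p = 0.0019). Zfp593 lies on the minus strand of chromosome 4 (134243289 to 134245592) and E130218I03Rik on the plus strand (134243662 to 134245873). Their spans overlap, so the 2 rows may count the same reads and are not separate results. In a list of 13 cardiac and atrial markers, 10 lay under 1 CPM (counts scaled to a common library size with TMM factors). Nppa, Sln and Kcna5 (a natriuretic peptide, sarcolipin and a potassium channel) had no count in any library, so these defining atrial markers were absent. Myl4 of the same list was detected in each library, with 120, 101 and 90 counts with ZNF593-AS and 57, 71 and 115 with vector. Summed marker levels were 102 to 118 CPM with ZNF593-AS and 95.8 to 108 CPM with vector for the cardiac list, 695 to 870 and 817 to 888 CPM for 9 fibroblast genes (3 under 1 CPM), and 213 to 297 and 179 to 208 CPM for 7 smooth muscle and pericyte genes (2 under 1 CPM). Of the 7 tested fibroblast genes Col1a1 (-0.45 ± 0.07), Col3a1 (-0.36 ± 0.08) and Col1a2 (-0.25 ± 0.07) fell and Pdgfra (0.39 ± 0.11) rose on the log2 scale (SE). Of 5 tested macrophage genes Cd68 rose (0.46 ± 0.13) and 4 did not pass. By sign 3 of these 5 were higher and 2 lower, with the lowest at -0.53. The 7 macrophage genes (4 under 1 CPM) summed to 13.0 to 13.8 CPM with ZNF593-AS and 10.4 to 12.9 CPM with vector, and the 6 endothelial genes, all under 1 CPM and Emcn with no count, to 0.953 to 1.64 and 0.830 to 1.38 CPM. The part of these marker levels in the results below was not tested, and in bulk RNA fewer cells of a type and less RNA per cell cannot be told apart.

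The promoters of 4 members are shown because the results turn on them: Hnrnpm was called lower, Hnrnpc is the gene of interest, Srsf3 had the smallest p among the Srsf genes and Hnrnpa1 had the highest fold change. Each runs from 250 bases before to 50 bases after a RefSeq start on GRCm38.p6, 5′ to 3′ on the strand of the gene. The RefSeq start need not be that of the deposited table: the Hnrnpm window lies wholly inside the gene as counted, which begins on its strand at 33686860. Capitals mark CCAAT and GGGCGG on either strand, which are the core of the CCAAT box and of the GC box. Hnrnpm lies on the minus strand at chr17:33685409-33685708, Hnrnpc on the minus strand at chr14:52103972-52104271, Srsf3 on the plus strand at chr17:29032410-29032709 and Hnrnpa1 on the plus strand at chr15:103240147-103240446.
Hnrnpm: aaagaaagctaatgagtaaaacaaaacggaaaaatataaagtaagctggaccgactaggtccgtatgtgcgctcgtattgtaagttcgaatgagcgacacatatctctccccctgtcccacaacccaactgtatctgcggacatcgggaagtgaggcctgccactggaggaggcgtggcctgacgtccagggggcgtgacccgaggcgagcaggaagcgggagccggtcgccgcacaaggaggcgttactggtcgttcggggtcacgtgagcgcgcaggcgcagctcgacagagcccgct
Hnrnpc: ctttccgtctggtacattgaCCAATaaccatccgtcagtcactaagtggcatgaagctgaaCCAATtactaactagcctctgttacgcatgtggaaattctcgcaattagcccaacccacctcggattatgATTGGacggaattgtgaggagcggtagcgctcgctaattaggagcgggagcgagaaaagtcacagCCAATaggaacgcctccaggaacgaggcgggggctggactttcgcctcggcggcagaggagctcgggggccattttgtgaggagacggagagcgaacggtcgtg
Srsf3: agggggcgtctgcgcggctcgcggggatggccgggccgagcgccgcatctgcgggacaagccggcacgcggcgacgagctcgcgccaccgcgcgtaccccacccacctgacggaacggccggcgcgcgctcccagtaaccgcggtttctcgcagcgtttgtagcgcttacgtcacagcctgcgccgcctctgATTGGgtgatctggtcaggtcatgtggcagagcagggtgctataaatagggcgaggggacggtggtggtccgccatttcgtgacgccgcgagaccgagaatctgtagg
Hnrnpa1: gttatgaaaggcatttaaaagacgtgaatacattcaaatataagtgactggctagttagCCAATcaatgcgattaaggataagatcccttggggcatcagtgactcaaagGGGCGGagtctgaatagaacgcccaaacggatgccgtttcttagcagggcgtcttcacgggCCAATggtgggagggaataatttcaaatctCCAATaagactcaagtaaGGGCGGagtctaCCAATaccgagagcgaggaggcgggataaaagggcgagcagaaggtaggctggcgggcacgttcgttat

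The Hnrnpc and Hnrnpa1 windows held 4 CCAAT matches each and the Srsf3 window held 1. The Hnrnpm window held no match of either motif, and Hnrnpa1 alone of the 4 held GGGCGG, at 2 places. RefSeq promoters were found for 29 of the 31 members, the exceptions being Hnrnpll and Hnrnpul2. Of these, 17 genes (58.6%) held CCAAT and 24 (82.8%) held GGGCGG in at least 1 promoter, against 43.3% and 66.0% of the 10509 tested genes with a promoter. CCAAT was held by 13 of 18 hnRNP genes (72.2%) and 4 of 11 Srsf genes (36.4%), the Srsf share lying below that of the tested genes. A gene with several promoters had more chances of a match. By promoter the shares were 63.0% of 27 for hnRNP genes and 28.6% of 14 for Srsf genes, against 38.2% for tested genes. The difference between these few genes was not tested. GGGCGG was held by 14 hnRNP genes (77.8%) and 10 Srsf genes (90.9%). The core that interferon response factors bind, which is GAAA, any 2 bases and GAAA, was also searched on both strands. It was in a promoter of 0 of 29 members, of 111 of 685 genes called lower (16.2%) and of 3.84% of tested genes. These are matches of letters and not binding sites.

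Most members were abundant, and their order was set by level per exon length, in TPM (a level per length, from the counts and the deposited exon lengths, without the TMM factors). Hnrnpa3, a relative of the splicing repressor hnRNP A1, stood highest, at 1964, 1975 and 2413 TPM with ZNF593-AS and at 1973, 1641 and 1940 TPM with vector. Hnrnpa1 itself followed at 1559, 1599 and 1708 TPM with ZNF593-AS and at 1331, 1330 and 1436 TPM with vector. The groups overlapped in Hnrnpa3 and did not in Hnrnpa1. Hnrnpab, a relative of hnRNP D, stood at 1483, 1474 and 1519 TPM with ZNF593-AS and at 1436, 1423 and 1410 TPM with vector. Hnrnpc, whose product binds uridine tracts as a tetramer and competes with U2AF for splice sites, was the 4th member by level at 961 ± 23.0 TPM with ZNF593-AS and 951 ± 45.8 TPM with vector (SD, n = 3 each). Hnrnpa2b1, which encodes the A2 and B1 proteins, came 5th at 799, 745 and 841 TPM with ZNF593-AS and at 778, 694 and 761 TPM with vector, with overlap.

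Over the 6 libraries Hnrnpa1 at 1494 ± 154 TPM and Hnrnpab at 1458 ± 41.5 TPM were within their spread of each other, while Hnrnpc at 956 ± 32.9 TPM stood apart from Hnrnpab above and from Hnrnpa2b1 at 770 ± 50.1 TPM below. The highest of the Srsf genes, Srsf5 and Srsf7, came 9th and 10th at 282 ± 25.1 and 270 ± 9.65 TPM and were within their spread of each other. At the low end stood Hnrnpl, a binder of CA repeats, at 28.2 ± 1.85 TPM, Hnrnpr at 20.2 ± 1.77 TPM and Hnrnpll, known for its part in the splicing of Ptprc in T cells, at 14.9 ± 1.24 TPM. Srsf12 was the single member below the filter for testing, with 0, 0 and 2 counts in the ZNF593-AS libraries and 0, 2 and 2 counts in the vector libraries. All members together took 2.06, 2.04 and 2.22% of the counts in ZNF593-AS replicates 1 to 3 and 1.998, 1.91 and 1.99% in vector replicates 1 to 3.

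**Figure D1:**
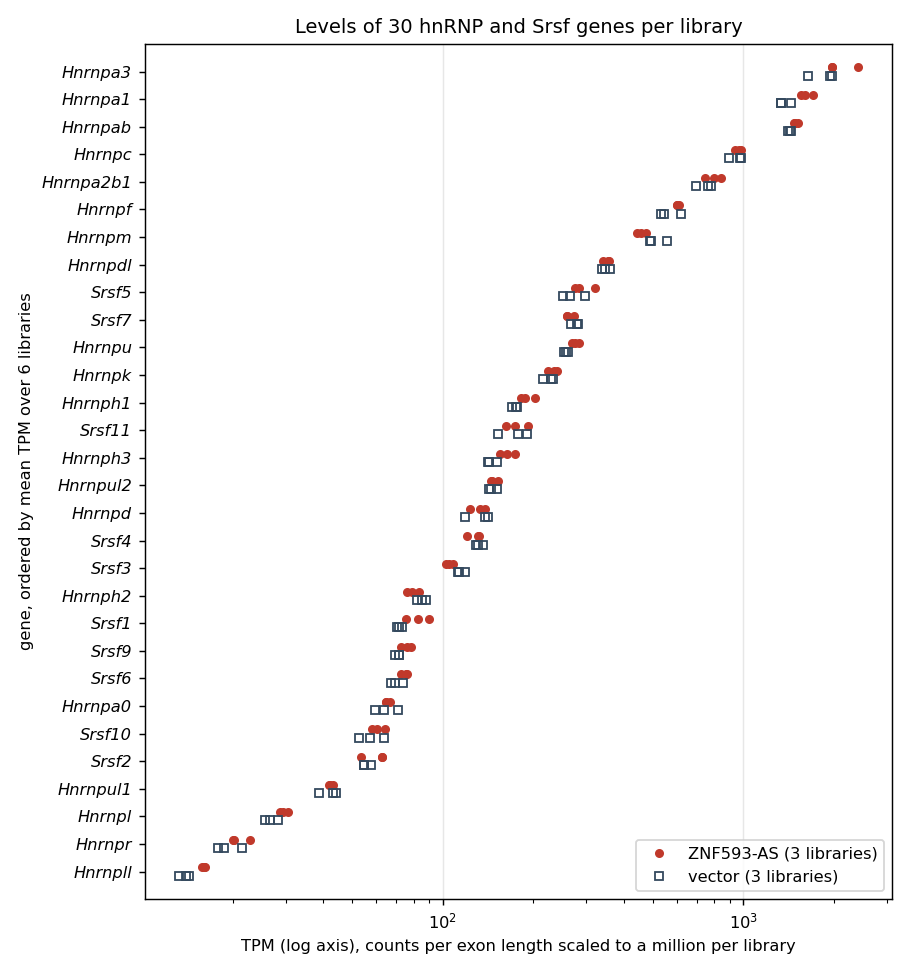
Level of the 30 tested members in each library, in TPM on a log axis, ordered by the mean over 6 libraries; filled circles are ZNF593-AS libraries and open squares vector libraries. The levels run from Hnrnpll at 14.9 TPM to Hnrnpa3, and the groups lie close together for each gene against this range.

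Of the 30 tested members 1 fell, 0 rose and 29 did not pass (edgeR's quasi-likelihood test, adjusted p under 0.05 over all 16473 tested genes). The background was 8.40% of tested genes called, with 2.23% higher and 6.16% lower. At an unadjusted p under 0.05 there were 2 members higher and 5 lower, against 20.4% of all tested genes, and the 2 groups did not overlap in 6 members, against 25.8% of all tested genes. The median log2 fold change was -0.0013 over the members and 0.0094 over all tested genes, and the median size of the change was 0.066 over the members and 0.12 over all. The median SE was 0.069 over the members and 0.099 over all, so the 2 sizes differ in noise as well. With library totals in place of the TMM factors the median log2 fold changes were 0.088 over the members and 0.10 over all genes, so the signs of small changes rest on the scaling.

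The standard errors (SE) were 0.057 to 0.10 on the log2 scale. They and the intervals below reflect the spread among these libraries, pooled in part over genes and possibly a technical one, and leave out the choice of scaling. The 95% intervals of the change, not adjusted for the number of genes, reached down to -24.0% (Hnrnpm) and up to 25.7% (Hnrnpa3) under the TMM factors. The interval lay within 1.2-fold in either direction for 21 of the 30 tested members. The fold changes ran from -0.25 to 0.17 on the log2 scale.

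**Figure D2:**
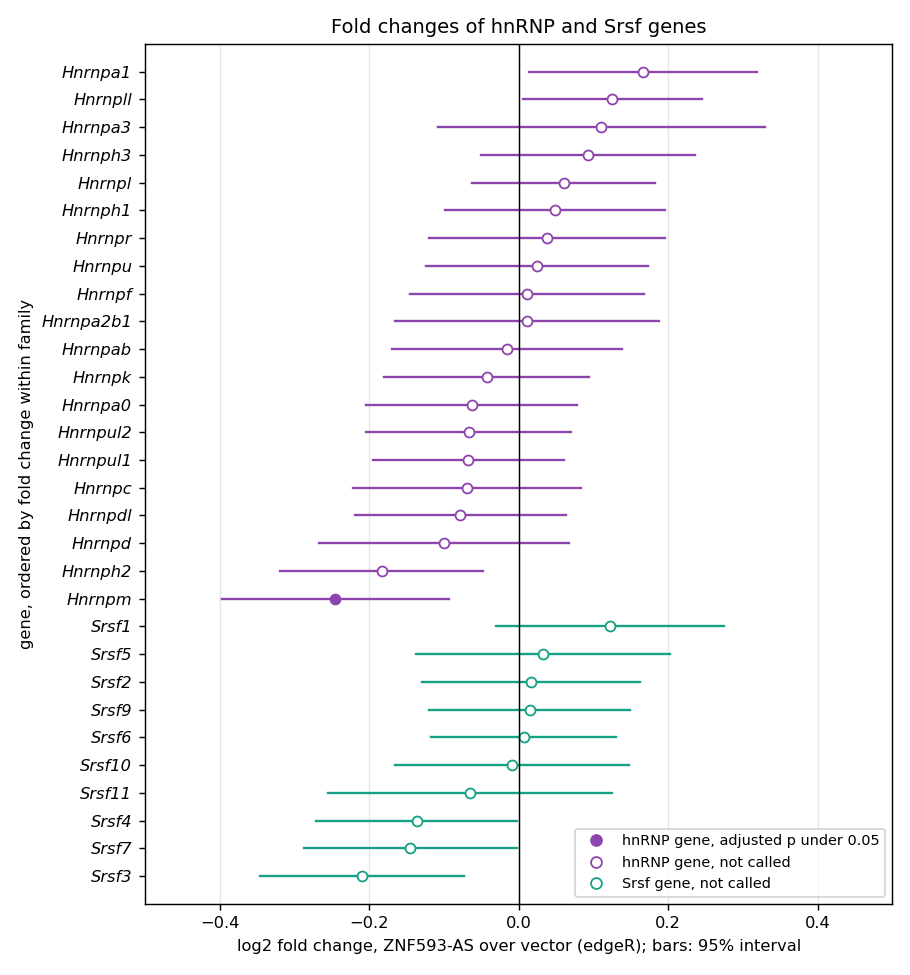
Log2 fold change of each tested member, ZNF593-AS over vector, with its 95% interval; hnRNP genes above, Srsf genes below, filled where the adjusted p was under 0.05. Hnrnpm at -0.25 is the single filled point, and the interval of Hnrnpc, at -0.07, includes 0.

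Hnrnpc (GRCm38 chromosome 14, 52073380 to 52104028, minus strand) did not pass. It stood at 1188, 1180 and 1160 CPM with ZNF593-AS and at 1316, 1164 and 1221 CPM with vector. The groups overlapped, with vector replicate 1 the highest library and ZNF593-AS replicate 3 the lowest. The log2 fold change was -0.07 ± 0.07 (SE), or -4.71% with an interval from -14.3 to 5.91% (edgeR adjusted p = 0.648), and with library totals it was 0.02. The value moved with single vector libraries, being -0.018 without vector replicate 1 and -0.11 without vector replicate 2 (edgeR adjusted p = 0.935 and 0.492). By size of change Hnrnpc was the 13th of the 30 tested members. Of its 50-base stretches 8.28% are shared with other genes in GENCODE M21, mostly with Gm12696, whose separate count equalled 1.87 to 2.06% of the size of the Hnrnpc count in the ZNF593-AS libraries and 1.91 to 2.22% in the vector libraries.

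Hnrnpm (chromosome 17, 33646233 to 33686860, minus strand) was the member that fell. Its product binds GU-rich RNA, controls exon choice in Cd44 and, in mouse macrophages, is known to slow the splicing of Il6. It stood at 915, 876 and 966 CPM with ZNF593-AS and at 1080, 1047 and 1141 CPM with vector. Each ZNF593-AS library was below each vector library. The log2 fold change was -0.25 ± 0.07 (SE), or -15.6% with an interval from -24.0 to -6.28% (edgeR adjusted p = 0.0427). The call was close to the threshold and ended without vector replicate 1 (adjusted p = 0.0977) or 3 (0.122), without ZNF593-AS replicate 1 (0.130), 2 (0.226) or 3 (0.0555), with ZNF593-AS replicate 1 as the single ZNF593-AS library (0.522), on halved counts (0.0504), with upper quartile factors (0.133) and with library totals (-0.16, adjusted p = 0.151). Over all alternatives its adjusted p ran from 0.00466 to 0.522 and its sign did not change. On the same strand 24.9% of its exon length overlaps March2, which was at 4.76 CPM with ZNF593-AS and 4.77 CPM with vector.

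**Figure D3:**
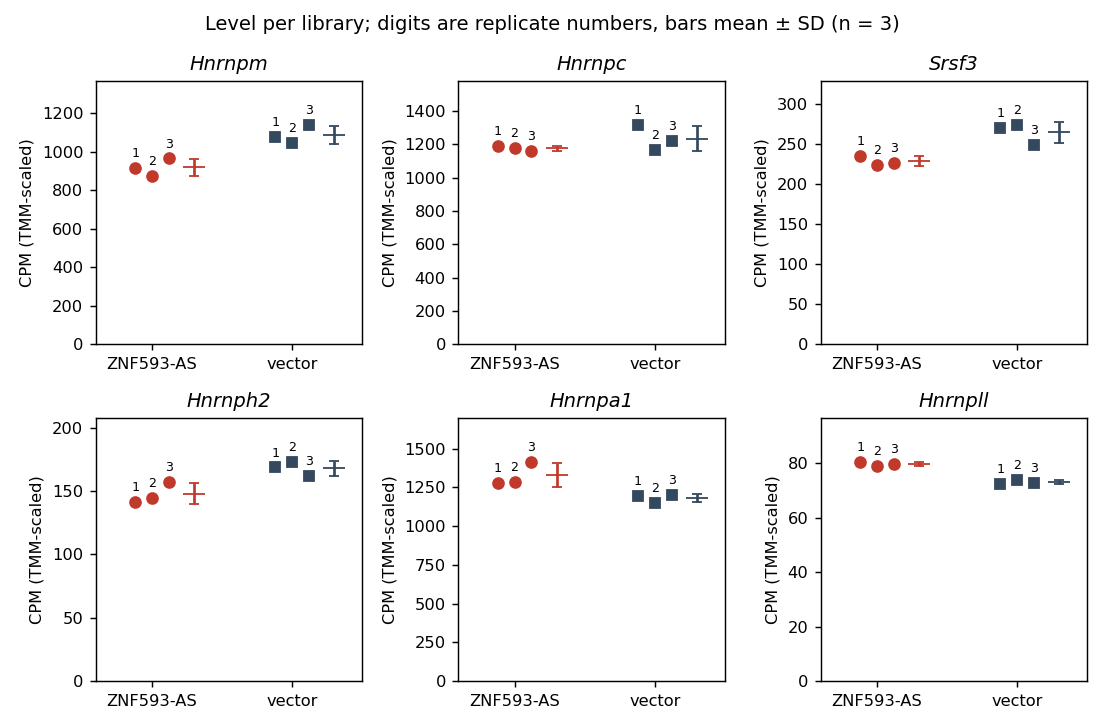
CPM of 6 members in each library, ZNF593-AS left and vector right, with replicate numbers and the mean ± SD (n = 3 each), on axes that start at 0. The groups separate in Hnrnpm, Srsf3, Hnrnph2, Hnrnpa1 and Hnrnpll and overlap in Hnrnpc.

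Among the other splicing repressors of the A/B class, Hnrnpa1 (chromosome 15, 103240432 to 103244955) stood at 1277, 1288 and 1417 CPM with ZNF593-AS and at 1197.5, 1152 and 1200 CPM with vector. The groups did not overlap, and the log2 fold change of 0.17 ± 0.07 (SE) did not pass (edgeR adjusted p = 0.199) except with library totals (0.26, adjusted p = 0.0134). Of the 50-base stretches of Hnrnpa1 28.2% also occur in other genes, and the 6 sharing genes in the table that hold at least 5% of them had separate counts whose sum equalled 3.33 to 3.84% of the size of the Hnrnpa1 count with ZNF593-AS and 3.32 to 3.52% with vector. Hnrnpa3 was at 4527, 4478 and 5633 CPM with ZNF593-AS and at 4996, 4003 and 4559 CPM with vector, with ZNF593-AS replicate 3 the highest and vector replicate 2 the lowest (0.11 ± 0.10). Hnrnpa2b1 (0.01 ± 0.08) and Hnrnpa0 (-0.06 ± 0.07), a binder of AU-rich elements, did not pass.

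The count ratio of Hnrnpa1 to Hnrnpm does not depend on the scaling. It was 1.40, 1.47 and 1.47 in the ZNF593-AS libraries and 1.11, 1.1 and 1.05 in the vector libraries, with no overlap. This pair was chosen after its values were seen, as the highest and the lowest fold change of the members, so the ratio is a description. The ratio of Hnrnpm to Hnrnpc was 0.771, 0.743 and 0.833 with ZNF593-AS and 0.821, 0.899 and 0.934 with vector, and the groups overlapped. The ratio of Hnrnpa1 to Hnrnpc was 1.075, 1.09 and 1.22 with ZNF593-AS and 0.910, 0.990 and 0.982 with vector, without overlap. Both ratios were also chosen after their values were seen.

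In the F/H class, whose proteins bind runs of G, Hnrnph2 on the X chromosome (134601179 to 134607060) stood at 142, 145 and 158 CPM with ZNF593-AS and at 169, 173 and 162 CPM with vector. Each ZNF593-AS library was below each vector library, and the log2 fold change of -0.18 ± 0.06 (SE) did not pass (edgeR adjusted p = 0.0996, from 0.0761 to 0.400 over the alternatives). Its relatives Hnrnph1 (0.05 ± 0.07), Hnrnph3 (0.09 ± 0.07) and Hnrnpf (0.01 ± 0.07) did not pass either. Of the 50-base stretches of Hnrnpf 61.9% also occur in other genes, the highest share of the members, and the 8 in the table that hold at least 5% of them had counts of their own whose sum equalled 51.5 to 53.8% of the size of the Hnrnpf count with ZNF593-AS and 45.1 to 55.9% with vector. Among them 4933440N22Rik and Gm43863 overlap exons of Hnrnpf on the opposite strand and may count the same reads as Hnrnpf. Gm6430 and Gm28901, whose spans overlap on chromosome 1, may count the same reads as each other, so the sum may be too high. Reads could also be split between Hnrnpf and copies elsewhere, so the value of Hnrnpf is uncertain.

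In the L class Hnrnpll stood at 80.6, 79.0 and 79.6 CPM with ZNF593-AS and at 72.5, 73.9 and 72.9 CPM with vector. The groups did not overlap and their spread was small, but the log2 fold change of 0.13 ± 0.06 (SE) passed only with upper quartile factors (0.19, edgeR adjusted p = 0.0454) or library totals (0.22, edgeR adjusted p = 0.0339), against 0.222 with the TMM factors. Hnrnpl was at 75.1 ± 1.83 CPM with ZNF593-AS and 72.1 ± 1.06 CPM with vector (0.06 ± 0.06).

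In the D class Hnrnpd, which encodes the mRNA decay factor AUF1, was at 386, 410 and 438 CPM with ZNF593-AS and at 475, 394 and 454 CPM with vector, with overlap (-0.10 ± 0.08). Its neighbour on chromosome 5, Hnrnpdl, had -0.08 ± 0.07 and Hnrnpab -0.02 ± 0.07. Of the exon length of Hnrnpab 29.1% overlaps Phykpl on the opposite strand. The Phykpl count equalled 32.3 to 33.3% of the size of the Hnrnpab count with ZNF593-AS and 32.6 to 33.9% with vector, and the 2 rows may share reads. Hnrnpk, a binder of C-rich RNA, was at 562, 565 and 547 CPM with ZNF593-AS and at 570, 592 and 563 CPM with vector, again with overlap (-0.04 ± 0.06). Hnrnpu, the nuclear scaffold protein, was at 1368 ± 52.0 CPM with ZNF593-AS and 1344 ± 29.9 CPM with vector (0.02 ± 0.07), and it did not pass. Hnrnpul1 was at 155, 157 and 158 CPM with ZNF593-AS and at 157, 169 and 167 CPM with vector (-0.07 ± 0.06). Hnrnpr was at 190, 189 and 219 CPM with ZNF593-AS and at 196, 179 and 207 CPM with vector (0.04 ± 0.07). The groups overlapped in both genes, and neither these nor Hnrnpul2 (-0.07 ± 0.06) passed. The signs of Hnrnpdl, Hnrnpab, Hnrnpk, Hnrnpul1 and Hnrnpul2 turned with library totals.

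None of the 10 tested Srsf genes passed edgeR or limma-voom, where edgeR had 3 lower and 0 higher at an unadjusted p under 0.05, and DESeq2 called 1 lower, Srsf3. Srsf3 (chromosome 17, 29032673 to 29043366), the smallest SR protein, stood at 236, 224 and 227 CPM with ZNF593-AS and at 271, 274 and 249 CPM with vector. Each ZNF593-AS library was below each vector library, and the log2 fold change was -0.21 ± 0.06 (SE) with an edgeR adjusted p of 0.0561, against 0.0213 in DESeq2 and 0.0307 in edgeR without vector replicate 3. Over all alternatives its adjusted p ran from 0.0213 to 0.723.

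Srsf7, which joins a zinc knuckle to its RNA recognition motif, was at 257 ± 9.07 CPM with ZNF593-AS and 284 ± 17.7 CPM with vector (-0.14 ± 0.07), and the groups overlapped. Srsf4 was at 182, 197 and 201 CPM with ZNF593-AS and at 219, 208 and 212 CPM with vector, without overlap, and did not pass (-0.14 ± 0.06, edgeR adjusted p = 0.237). On the opposite strand 43.0% of its exon length overlaps Gm12992, whose count was 89.7 to 90.4% of that of Srsf4 with ZNF593-AS and 89.2 to 91.3% with vector, so the reads of the pair cannot be told apart there. Srsf1, the founding SR protein, was at 219, 181 and 205 CPM with ZNF593-AS and at 191, 181 and 183 CPM with vector. Its log2 fold change of 0.12 ± 0.07 (SE) passed with library totals alone (0.21, edgeR adjusted p = 0.0457), and it was 0.0585 without ZNF593-AS replicate 1 and 0.19 without ZNF593-AS replicate 2. The remaining Srsf genes ran from -0.06 ± 0.09 for Srsf11 to 0.03 ± 0.08 for Srsf5, with Srsf10, Srsf6, Srsf9 and Srsf2 between them.

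Summed over the family, the hnRNP genes stood at 17444, 17139 and 19234 CPM with ZNF593-AS and at 18636, 16931 and 17611 CPM with vector. The groups overlapped. The Srsf genes summed to 2483, 2339 and 2608 CPM with ZNF593-AS and to 2635, 2468 and 2576 CPM with vector, again with overlap. The log2 ratio of the group means was 0.017 for the hnRNP sum and -0.048 for the Srsf sum, against 0.11 and 0.043 with library totals. The libraries of 1 group differed little for most members: the SD was 0.634 to 13.4% of the mean with ZNF593-AS (median 4.46%) and at least 0.962% with vector (median 4.49%), with Hnrnpa3 the most variable member in each group.

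**Figure D4:**
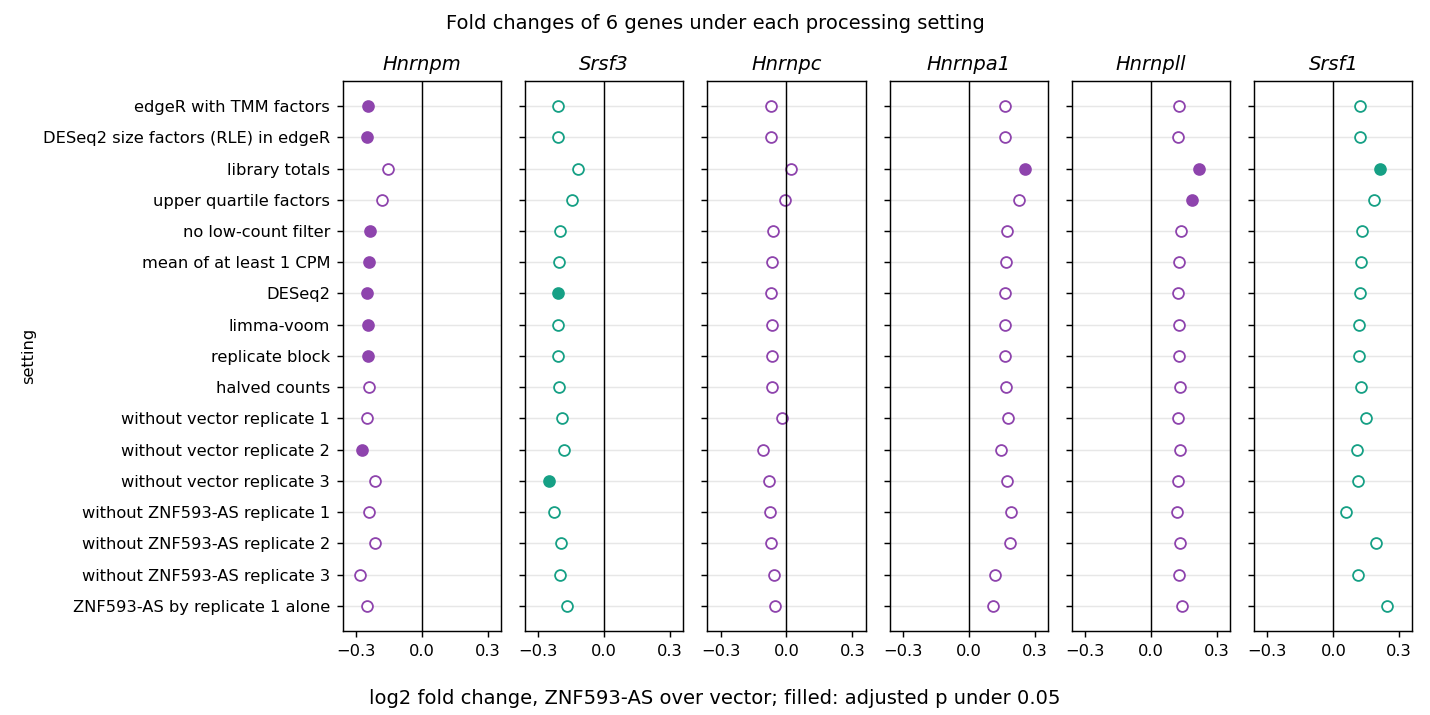
Log2 fold change of 6 members, ZNF593-AS over vector, under each processing setting; filled points have an adjusted p under 0.05. Hnrnpm and Srsf3 stay left of 0 and Hnrnpa1, Hnrnpll and Srsf1 right of 0 in all settings shown, and Hnrnpc crosses 0 with library totals (0.02).

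Genes around the 2 families were read from 4 lists, chosen like the members with earlier results of these data known. The background for the counts in each list was 2.23% of all tested genes called higher and 6.16% called lower. The median log2 fold change over all tested genes was 0.0094, and 0.10 with library totals. The list medians below hold for the TMM factors and depend on the scaling. Of 12 tested kinases and importers of SR proteins, 1 rose and 0 fell, and their median change was -0.028 on the log2 scale. The gene that rose was Tnpo3, the importin that carries SR proteins into the nucleus, at 107, 109 and 108 CPM with ZNF593-AS and at 90.9, 93.7 and 94.3 CPM with vector. Each ZNF593-AS library was above each vector library (0.22 ± 0.06, edgeR adjusted p = 0.0235). The call ended without vector replicate 1 (adjusted p = 0.0898) or without ZNF593-AS replicate 1 (0.0524), 2 (0.101) or 3 (0.0761), or with ZNF593-AS replicate 1 as the single ZNF593-AS library (0.442), and 3.14% of its exon length overlaps Irf5 on the opposite strand. The kinases Clk1 (-0.03 ± 0.06), Clk4 (-0.03 ± 0.07) and Srpk1, at 168 ± 7.18 CPM with ZNF593-AS and 168 ± 6.18 CPM with vector, did not pass. Dyrk1b had the largest change of the list (0.60 ± 0.22) at a low level, 1.28 ± 0.18 CPM with ZNF593-AS and 0.84 ± 0.15 CPM with vector. Its groups did not overlap, and it did not pass either (edgeR adjusted p = 0.117).

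Of 46 tested splicing regulators with other names, 1 fell and 0 rose, with a median of -0.047. It was Rbfox2, a regulator of muscle exons that binds UGCAUG, at 308, 298 and 301 CPM with ZNF593-AS and at 348, 342 and 384 CPM with vector (-0.24 ± 0.07, edgeR adjusted p = 0.0303). Its call ended without vector replicate 1 (adjusted p = 0.0549) or 3 (0.110), without ZNF593-AS replicate 1 (0.0652), 2 (0.136) or 3 (0.0990), with ZNF593-AS replicate 1 as the single ZNF593-AS library (0.564), with library totals (0.156) and with upper quartile factors (0.104). Raly, the closest relative of Hnrnpc, was at 279 ± 5.15 CPM with ZNF593-AS and 311 ± 25.3 CPM with vector (-0.15 ± 0.07) and did not pass.

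Of 73 tested core spliceosome genes 2 fell and 0 rose, with a median of -0.075. Prpf38a, a factor of spliceosome activation, was at 51.5, 47.2 and 52.8 CPM with ZNF593-AS and at 59.1, 64.4 and 62.2 CPM with vector (-0.29 ± 0.07, edgeR adjusted p = 0.00732), a call that ended without ZNF593-AS replicate 2 (adjusted p = 0.0621), with replicate 1 as the single ZNF593-AS library (0.242) and with library totals (0.0665). Snrnp200, the helicase that unwinds U4 from U6, was at 154, 147 and 147 CPM with ZNF593-AS and at 165, 187 and 187 CPM with vector (-0.27 ± 0.07, edgeR adjusted p = 0.0173). Its call ended without vector replicate 2 (adjusted p = 0.0606) or 3 (0.0669), without ZNF593-AS replicate 2 (0.0886) or 3 (0.0795), with replicate 1 as the single ZNF593-AS library (0.514), with library totals (0.113) and with upper quartile factors (0.0615).

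Of 15 tested genes of nonsense-mediated decay and the exon junction complex, 1 fell and 0 rose, with a median of -0.049. Smg1, the kinase of UPF1, was at 76.3, 81.0 and 77.5 CPM with ZNF593-AS and at 94.2, 97.1 and 113 CPM with vector. Each ZNF593-AS library was below each vector library (-0.37 ± 0.07, edgeR adjusted p = 0.00192). The call of Smg1 held in each of the 16 alternatives, with an adjusted p of at most 0.0361. Upf1 itself, the helicase of the pathway, had -0.10 ± 0.06 and did not pass.

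**Figure D5:**
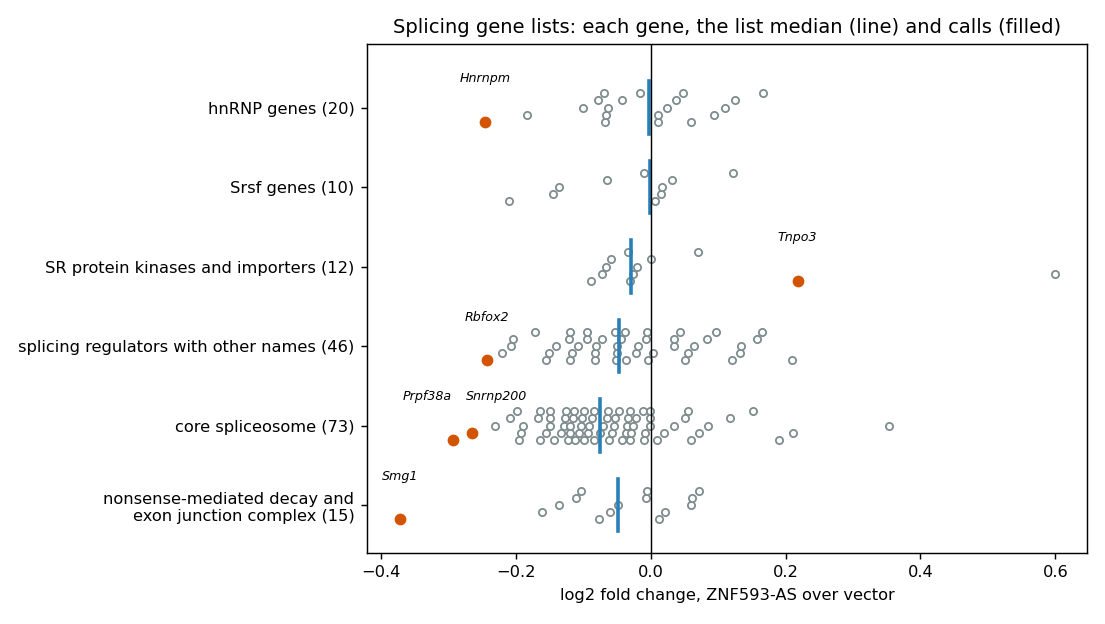
Log2 fold change, ZNF593-AS over vector, of each tested gene in the 2 families and 4 splicing lists, with numbers of tested genes; blue lines are medians and filled points have an adjusted p under 0.05. The points of the 2 families lie between -0.25 and 0.17, and Smg1 at -0.37 is the largest fall shown.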

How the data were processed

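RNA of 6 HL-1 samples was sequenced. The authors deposited whole counts for each gene, beside an exon length, per the file headers. The submitters' processing notes name GRCm38, CASAVA, cutadapt 1.2.1, Bowtie2 and TopHat2 and assign them no role. How reads were assigned to genes, with which annotation and whether by strand, is not given in the sources used here. Rows that overlap on opposite strands, such as Zfp593 and E130218I03Rik or Srsf4 and Gm12992, had similar counts. Reads there seem to enter both rows without regard to strand. Per library, 2160 to 2359 genes had a count of 2 and 365 to 492 a count of 1, so read pairs seem to enter with both ends; halved counts were therefore an alternative.

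Genes passing filterByExpr (at least 10 counts, total 15) were scaled by TMM and tested with edgeR 4.0.16 (robust quasi-likelihood F test, 2-sided, Benjamini-Hochberg) in R 4.3.3, with limma 3.58.1 and DESeq2 1.42.0 as alternatives beside other scalings, filters, a replicate block and left-out libraries. The SE is the size of the log2 fold change divided by the square root of F, and intervals use the moderated degrees of freedom. Sequence sharing was computed over stretches of 50 bases in GENCODE M21. Exons of 12 members overlap another counted gene. The fit was tested on simulated data with 200 changed genes each, fewer than the 1383 called in the data, so the shares need not hold for the data. False calls were 9.25% of calls, above the nominal share. Most changes of the smallest simulated size were missed, with 37.6% of the 1.25-fold changes recovered. The changed genes were drawn at random from all tested genes, whose median SE was 0.099 against 0.069 for the members. The share missed therefore need not hold for the members. A call near the threshold and a member that did not pass are both to be read with caution. The members and lists were chosen with earlier results of these data known.

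By rule, values of every library are given for Hnrnpc, called members, the 5 members highest per length and the smallest p of each subfamily without a call, and from each list the called genes, at most 4 per direction. Srsf1, Hnrnpu, Srsf7, Clk1, Clk4, Srpk1, Dyrk1b, Raly and Upf1 were picked out after their values were seen. Protein sequences were not used here, and 1 gene of the lists is not reported here.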

Additional observations from a re-analysis of the deposited data

How the results depend on the processing

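Over 16 alternatives, 425 of 480 member values kept their sign and their side of the threshold. The sign turned in 40, at values of at most 0.0795, and no called value turned. With library totals the hnRNP genes called numbered 2 (Hnrnpa1 and Hnrnpll, both higher) and the Srsf genes 1 (Srsf1, higher), against 1 and 0, all genes called 2095 against 1383, with 1284 higher and 811 lower against 368 and 1015, and the log2 ratio of summed levels was 0.1082 (hnRNP) and 0.0431 (Srsf). With upper quartile factors 885 genes were called higher and 855 lower. DESeq2 called 1 Srsf gene, and halved counts gave 0 hnRNP genes. ZNF593-AS by replicate 1 alone, added after seeing the data because of the treatment fields, gave 675 calls and 0 hnRNP genes. With a single library left out, calls ran from 0 to 1 hnRNP gene, 0 to 1 Srsf gene and 965 to 1356 genes.

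Signs that turned with library totals were Hnrnpa0 (0.0267), Hnrnpab (0.0752), Hnrnpc (0.0228), Hnrnpdl (0.0134), Hnrnpk (0.0480), Hnrnpul1 (0.0226), Hnrnpul2 (0.0239), Srsf10 (0.0795) and Srsf11 (0.0258). With upper quartile factors Hnrnpab (0.0460), Hnrnpk (0.0198) and Srsf10 (0.0534) turned, with no low-count filter Srsf10 (0.0006), and by replicate 1 alone Hnrnpr (-0.0259), Hnrnpu (-0.0090) and Srsf5 (-0.0125). With a library left out the members that turned ranged from -0.0993 to 0.0079 (Hnrnpa0), -0.0400 to 0.0762 (Hnrnpa2b1), -0.0034 to 0.1918 (Hnrnpa3), -0.0490 to 0.0203 (Hnrnpab), -0.0388 to 0.0814 (Hnrnpf), -0.0045 to 0.0924 (Hnrnph1), -0.0319 to 0.0880 (Hnrnpr), -0.0057 to 0.0422 (Hnrnpu), -0.0579 to 0.0676 (Srsf10), -0.1510 to 0.0012 (Srsf11), -0.0239 to 0.0804 (Srsf2), -0.0478 to 0.0880 (Srsf5), -0.0066 to 0.0177 (Srsf6) and -0.0258 to 0.0506 (Srsf9). The cause was not tested.

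Libraries with the same replicate number did not deviate together (correlations -0.0288, -0.0296 and 0.0492). This cannot show whether such libraries were prepared together, and the main fit did not pair them. The replicate block gave 1331 calls, 1 hnRNP gene, 0 Srsf genes and -0.0678 for Hnrnpc.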
